A study of Mus musculus with 6 samples.

Results

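The natriuretic peptide genes Nppa and Nppb, the protease gene Corin and the receptor genes Npr1, Npr2 and Npr3 were followed in isolated mouse heart cells. These 6 genes were chosen as members of 1 pathway, not by their values in a comparison, though earlier results of these data were known. They were measured by 8 of the 45101 probe sets on the array, each annotated to a single gene. Npr3 had 3 probe sets and the others 1 each; of the Npr3 probe sets the brightest on average was taken, by the same rule that reduced the table to 18193 genes. Total RNA of unmodified C57BL/6J mice was hybridised to 6 Affymetrix arrays in 3 groups of 2. Neonatal cardiomyocytes and neonatal cardiac fibroblasts came from hearts of both sexes at postnatal day 1 and were parted by density in Percoll. Adult cardiomyocytes came from hearts of males at 8 weeks of age, released by perfusion through the aorta, so age, sex and isolation method cannot be told apart between adult and neonatal cells. Whether both arrays of a group stem from separate litters or preparations is not stated, and p-values then cover only a spread that may be technical.

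Atrial natriuretic peptide (ANP, from Nppa) and B-type natriuretic peptide (BNP, from Nppb) are hormones that heart muscle cells release when stretched. Corin, a serine protease of the cardiomyocyte surface, cuts the ANP precursor into its active form. Npr1 and Npr2 encode receptors that make cyclic GMP (cGMP) when ANP and BNP, or C-type natriuretic peptide, bind, and Npr3 encodes the clearance receptor, which takes the peptides up for breakdown. In the adult heart ANP is made mainly in the atria, while the fetal ventricle also makes it. Npr1 is known from vascular, kidney and endothelial cells, Npr2 from cartilage and fibroblasts, and Npr3 from the endocardium, fibroblasts and fat.

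The peptide genes lie next to each other on mouse chromosome 4 in the RefSeq gene table. Nppa and Nppb both had their highest mean in neonatal cardiomyocytes, though neither was called against adult ones (adjusted p of 0.349 and 0.851 in limma). Cardiac factors are known to act on both, so the bases before their starts are shown. They come from RefSeq (GRCm38.p6) and are given 5′ to 3′ on the plus strand. For Nppa these are the 250 bases before the start, and for Nppb the 30 bases that hold its GATA and MCAT matches, from 108 to 79 bases before the start used in the promoter table. The gene table places the outermost Nppb start 114 bases further upstream, so this stretch lies within the annotated extent of Nppb. Capitals mark matches to the motifs searched.
Nppa, chr4:148000472-148000721: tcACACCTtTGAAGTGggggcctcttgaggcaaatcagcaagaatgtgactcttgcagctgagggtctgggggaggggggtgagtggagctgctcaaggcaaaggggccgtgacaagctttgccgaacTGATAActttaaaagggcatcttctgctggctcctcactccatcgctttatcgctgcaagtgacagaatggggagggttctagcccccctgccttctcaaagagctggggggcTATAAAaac
Nppb, chr4:147985792-147985821: gcaGGAATGcagcTGATAAatcagAGATAA
Motifs were searched on both strands in the window of 250 bases before the promoter table's start of each of the 6 genes, and none of the matches overlapped another. For Nppa and Corin that start is also the outermost start of the gene; for Nppb, Npr1, Npr3 and Npr2 the outermost start lies 114, 62, 466 and 2920 bases upstream of the window's end, so these windows lie partly or wholly inside the annotated gene. The GATA motif (NGATAN with A or T first and A or G last) matched once in the Nppa window and at 2 places in the Nppb window, and in no other of the 6; 26.5% of 32851 RefSeq windows of that length hold it. The NKX motif (TNAAGTG, in 10.1% of windows) matched in the window of Nppa, the MCAT motif (CATTCC, 12.6%) in that of Nppb, the T-box motif (AGGTGT, 11.8%) in those of Nppa and Npr2, and TATAAA (12.4%) in those of Nppa and Nppb. The Npr2 match lies inside the annotated gene. The CArG box, held by 1.47% of windows, matched in none of the 6 windows. A match describes the letters and shows no binding.

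Levels are log2 RMA values. A group's level is its mean ± SD (n = 2 arrays), and differences are log2 differences from limma with their standard error (SE). The array medians lay between 5.60 and 5.67, the lower quartiles between 4.19 and 4.37 and the maxima between 14.4 and 14.6. Both neonatal arrays numbered 1 carry the opposite cell type in their titles, so groups followed the source names, and markers were examined first. The median of 13 cardiomyocyte markers was, replicate 1 before replicate 2, 13.58 and 12.94 for neonatal cardiomyocytes, 13.64 and 13.59 for adult cardiomyocytes, and 6.72 and 9.57 for fibroblasts. The median of 12 fibroblast markers was 12.14 and 11.46 for fibroblasts, 9.37 and 8.93 for neonatal and 8.24 and 9.40 for adult cardiomyocytes. All 13 cardiomyocyte markers were higher on fibroblast replicate 2 than on fibroblast replicate 1, by 2.72 in the median, where 53.8% of all genes were higher. Leukocyte markers were high in the fibroblast group, with medians of 11.91 and 9.07 against 7.11 and 5.53 for neonatal cardiomyocytes, and all 12 had the lower mean in the latter; their part in the differences from fibroblasts was not tested. Endothelial markers went the other way, with medians of 8.81 and 7.81 for neonatal cardiomyocytes against 5.91 and 6.86 for fibroblasts. Of the 12, 11 had the higher mean in neonatal cardiomyocytes and 1 the lower, and their part was not tested either. In such bulk samples, fewer cells of a type and less RNA per cell cannot be told apart.

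**Figure D1:**
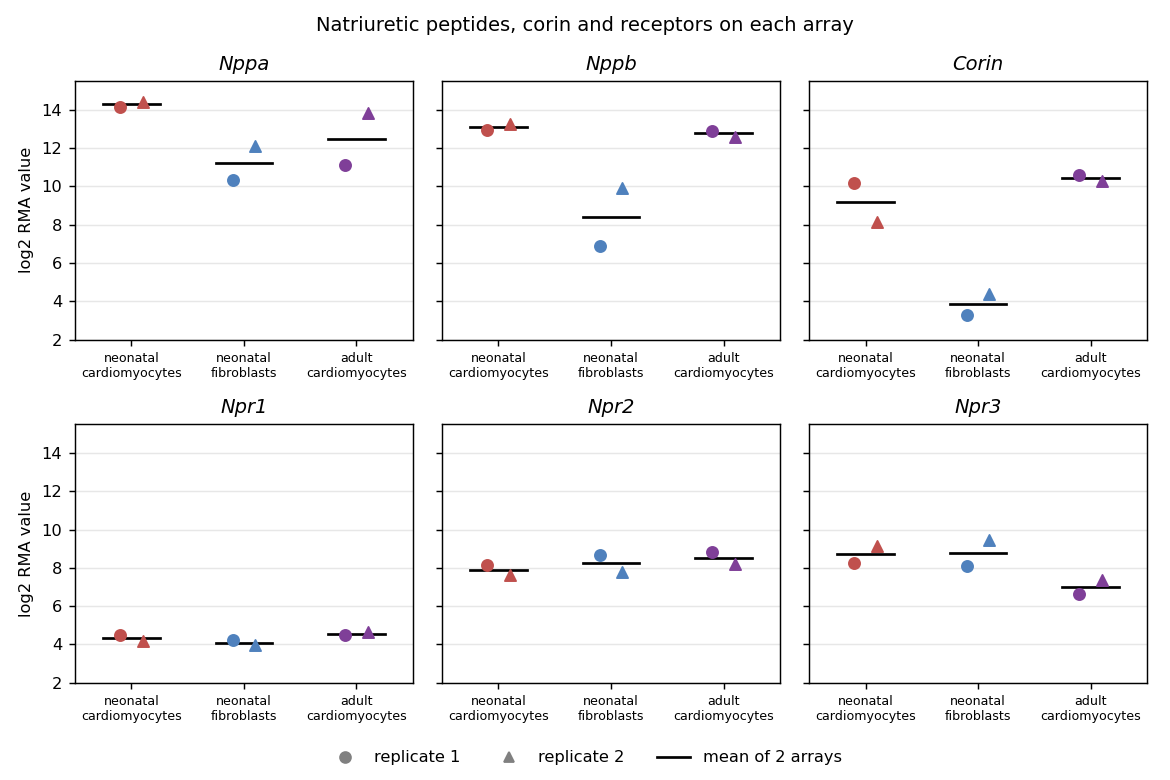
Log2 RMA value (vertical axis) of each of the 6 genes on each array, by group (horizontal axis). Circles are replicate 1, triangles replicate 2 and bars the mean of 2 arrays. Nppb and Corin separate both cardiomyocyte groups from the fibroblast arrays, Nppa lies at 11.11 and 13.84 on the adult arrays, and Npr1 lies between 3.95 and 4.64 everywhere.

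Nppa was highest in neonatal cardiomyocytes, at 14.17 on replicate 1 and 14.42 on replicate 2, close to the highest values on those arrays. Adult cardiomyocytes gave 11.11 and 13.84, and fibroblasts 10.31 and 12.13. Neonatal cardiomyocytes lay above every other array, while the adult and fibroblast arrays overlapped. The fibroblast arrays differed 3.53-fold, a gap wider than that of 97.3% of genes. The higher value was on replicate 2, which also had the higher cardiomyocyte markers. The part of these markers in the Nppa value of fibroblasts was not tested. Neonatal cardiomyocytes averaged 14.30 ± 0.18, adult ones 12.47 ± 1.94 and fibroblasts 11.22 ± 1.29, and the last pair did not differ beyond their spread.

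Nppb separated the arrays of neonatal and of adult cardiomyocytes from those of neonatal fibroblasts, and no adult fibroblasts were measured. It measured 12.94 and 13.25 in neonatal cardiomyocytes, 12.91 and 12.60 in adult ones, and 6.90 and 9.91 on the fibroblast arrays. Every cardiomyocyte array lay above both fibroblast arrays. The means of neonatal (13.10 ± 0.22) and adult cardiomyocytes (12.76 ± 0.22) did not differ beyond the limma error, and the fibroblast mean was 8.40 ± 2.13. The fibroblast arrays differed from each other 8.06-fold, a gap wider than that of 99.4% of genes, with the higher value on replicate 2, which also had the higher cardiomyocyte markers. The part of these markers in the fibroblast value was not tested.

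Corin ran as Nppb did between cell types, with the adult arrays on top. Adult cardiomyocytes gave 10.57 and 10.26, neonatal ones 10.17 and 8.16, and fibroblasts 3.28 and 4.40. The fibroblast values bracket the lower quartile of their arrays (4.19 and 4.22), where RMA gives no call of presence. Adult cardiomyocytes averaged 10.42 ± 0.22, neonatal ones 9.16 ± 1.42 and fibroblasts 3.84 ± 0.79. The neonatal cardiomyocyte arrays differed 4.01-fold. Replicate 2, the lower of them for Corin, was also the lower for 12 of 13 cardiomyocyte markers, where 50.7% of all genes were higher on it. The gap, replicate 1 minus replicate 2, was 2 for Corin, 0.65 in the median of the 13 markers and −0.31 for Nppb. The part of these markers in the Corin value was not tested.

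The receptors had narrower ranges over the 6 arrays, 0.69 for Npr1, 1.18 for Npr2 and 2.82 for Npr3, than the peptide genes and Corin (4.11 to 7.29). Npr1, the ANP and BNP receptor, lay at 4.51 and 4.20 in neonatal cardiomyocytes. Fibroblasts gave 4.24 and 3.95, and adult cardiomyocytes 4.51 and 4.64. All 6 values lay near the lower quartile of the arrays and within 0.69 of each other, so these arrays give little room to see a difference in this transcript. Npr2, the receptor for C-type natriuretic peptide, measured 8.17 and 7.64 in neonatal cardiomyocytes, 8.67 and 7.80 in fibroblasts, and 8.82 and 8.18 in adult cardiomyocytes. The Npr2 values of the groups overlapped except that both adult arrays lay just above both neonatal cardiomyocyte arrays, and replicate 1 was higher in each group. Npr3, the clearance receptor, measured 8.26 and 9.15 in neonatal cardiomyocytes, 8.12 and 9.46 in fibroblasts, and 6.64 and 7.36 in adult cardiomyocytes. The neonatal groups overlapped in Npr3, both adult arrays lay below all 4 neonatal arrays, and replicate 2 was higher in each group. The other Npr3 probe sets had the same order between ages, at 6.41 and 6.34, 6.05 and 6.67, and 5.52 and 5.02 for the first, and at 6.17 and 6.29, 5.29 and 6.59, and 4.95 and 5.09 for the second. The replicate pattern was not shared by the first, where replicate 2 was higher in fibroblasts only, but was shared by the second.

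Between neonatal cardiomyocytes and neonatal fibroblasts, the question is which cell type of the newborn heart carries the pathway. The peptide genes and Corin were higher in cardiomyocytes on every array, and the receptors overlapped. Nppa differed by 3.08 ± 1.04 (SE; adjusted p = 0.244 in limma); its cardiomyocyte values lay near the array maxima, where differences can be compressed, so no fold is given. Nppb differed by 4.70 ± 0.96 (25.9-fold, adjusted p = 0.0996), and Corin by 5.32 ± 0.74 (adjusted p = 0.0562). For Corin no fold is given, since its fibroblast values lay around the lower quartile, where the level is not told from background. Npr1, Npr2 and Npr3 differed by 0.26, −0.33 and −0.08, with 95% intervals of −0.27 to 0.79, −1.36 to 0.70 and −1.53 to 1.37. Of the 6 genes 0 passed the threshold of 0.05 after Benjamini-Hochberg adjustment over all genes in limma, against 0.819% of all 18193 genes (0.676% higher and 0.143% lower in cardiomyocytes). At unadjusted p under 0.05, 3 of 6 passed, against 16.3% of genes, and 3 of 6 had arrays that did not overlap, all higher in cardiomyocytes, against 45.4% in either direction, 22.3% higher and 23.2% lower. The median difference of the 6 was 1.67, beside −0.02 over all genes. Single arrays moved these values. Without fibroblast replicate 2, Nppb differed by 6.20 (adjusted p = 0.0107 in limma), and without fibroblast replicate 1 by 3.19. Without neonatal cardiomyocyte replicate 2, Corin differed by 6.32 (adjusted p = 0.0376), and without neonatal cardiomyocyte replicate 1 by 4.32. Without the other arrays, 1 at a time, 0 of the 6 genes passed in limma, with 2 or 3 at unadjusted p under 0.05.

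**Figure D2:**
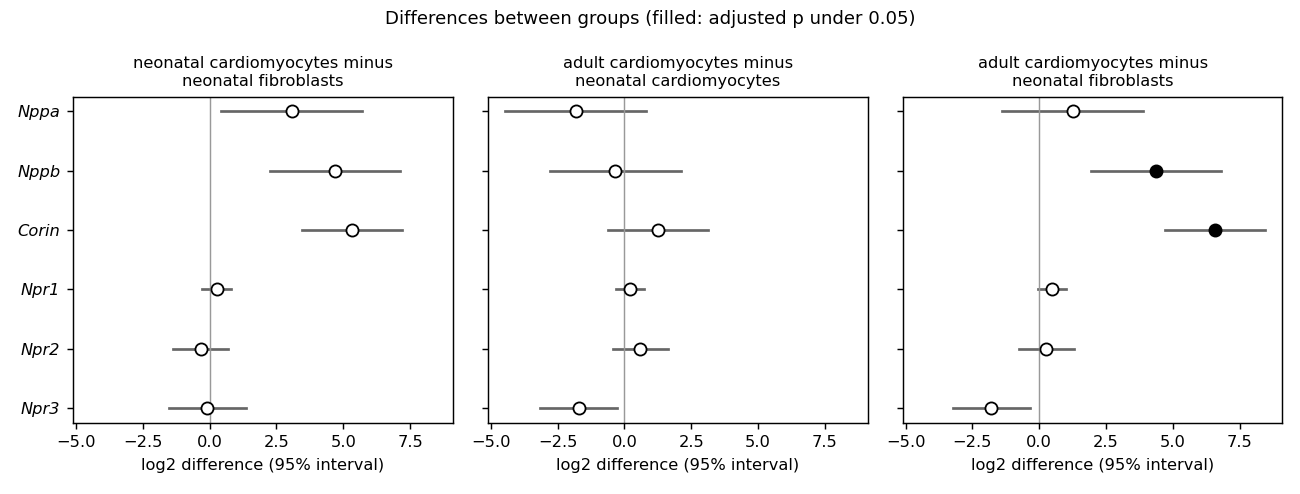
Log2 differences of the 6 genes (points) with 95% limma intervals (lines) in the 3 comparisons; filled points have an adjusted p under 0.05. Only Nppb (4.36) and Corin (6.57) between adult cardiomyocytes and neonatal fibroblasts are filled.

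Between adult and neonatal cardiomyocytes, the question is how the pathway differs with age within the muscle cell. Nppa and Npr3 were lower in adult cells and Corin and Npr2 higher, but 0 of 6 genes passed in limma, against 2.3% of all genes (1.08% higher and 1.22% lower in adult cells). At unadjusted p under 0.05 Npr3 alone passed (22.8% of genes). The arrays did not overlap for 5 of 6 (57.7% of genes): Nppa, Nppb and Npr3 lower (23.8% of genes) and Corin and Npr2 higher (33.9%). Npr3 differed by −1.71 ± 0.57 (SE), 3.27-fold lower in adult cells, with an adjusted p of 0.172. It was lower by 1.62 between the replicates numbered 1 and by 1.80 between those numbered 2, and with the replicate number as a block in limma its adjusted p was 0.0424. Its other probe sets differed by −1.11 and −1.21. Nppa differed by −1.82 (95% interval −4.46 to 0.81, adjusted p = 0.349), with −3.06 between replicates 1 and −0.58 between replicates 2. Nppb differed by −0.34, with an interval of −2.78 to 2.10, which leaves room for a change of several fold either way. Corin differed by 1.25 (−0.62 to 3.13), Npr2 by 0.59 (−0.44 to 1.62) and Npr1 by 0.22 (−0.31 to 0.74). The median over the 6 was −0.06, beside 0.09 over all genes. Corin differed by 2.25 without neonatal cardiomyocyte replicate 1 and by 0.25 without replicate 2, both short of the threshold.

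The adult arrays disagreed on Nppa more than on nearly any other gene. Replicate 2 was 6.67-fold higher than replicate 1, a gap wider than that of 99.9% of genes; 56.5% of genes had a smaller gap than Nppb and 56.4% than Corin. Markers of atrial muscle moved with it. Sarcolipin (Sln), a regulator of the calcium pump, was 62.2-fold higher on adult replicate 2, at 11.99 against 6.04, and the atrial myosin light chains Myl7 and Myl4 were 31.3- and 29.2-fold higher. All 10 measured atrial markers had the higher value on replicate 2, where 51.4% of all genes did, with a median gap of 1.71. The list was uneven: Dkk3, Nr2f2 and Nr2f1 were 4.74-, 4.04- and 2.65-fold higher on replicate 2, while Kcnj5, Bmp10, Kcna5 and Gja5 differed by at most 1.30-fold. Of 7 ventricular markers, 5 were higher on replicate 1 and 2 on replicate 2. The transcription factor genes Irx4 and Irx3 and the myosin gene Myh7 differed by 0.16, 0.20 and 0.35 towards replicate 1, and Irx5 and Hey2 by −0.60 and −1.02, towards replicate 2 as for Nppa. The ventricular light chain genes Myl2 and Myl3 lay near the array maxima, at 14.40 to 14.52, where a gap cannot be read. Pam, which encodes an amidating enzyme and abundant membrane protein of atrial secretory granules, measured 7.51 on replicate 1 and 10.44 on replicate 2, but its gap was alike in every group, at −2.78 in neonatal cardiomyocytes, −2.63 in fibroblasts and −2.93 in adult cardiomyocytes. Other marker lists were also higher on adult replicate 2: all 12 leukocyte markers, all 10 smooth muscle and pericyte markers, 10 of 12 endothelial markers and 10 of 12 fibroblast markers, with medians of 8.01 against 6.69, 10.15 against 8.39, 9.50 against 8.31 and 9.40 against 8.24. Their median gaps, replicate 1 minus replicate 2, were −1.43, −1.06, −1.1 and −1.87, beside −1.71 for the atrial markers. The fibroblast markers ran from Col1a2 (−2.74, the same gap as Nppa) to Fbln1 (0.65). The part of these markers in the Nppa value of replicate 2 was not tested. Without adult replicate 2, Nppa was 3.19 lower in adult than in neonatal cardiomyocytes, and without adult replicate 1 it was 0.45 lower, with adjusted p of 0.224 and 0.844 in limma.

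**Figure D3:**
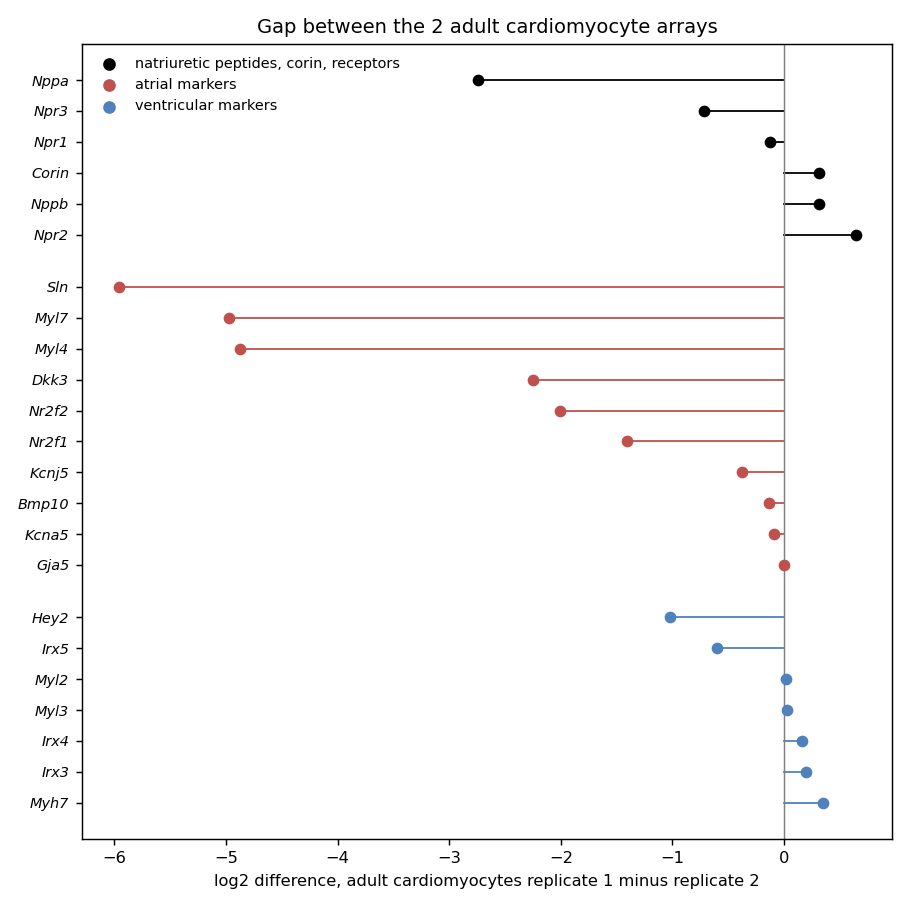
Log2 difference between the adult cardiomyocyte arrays, replicate 1 minus replicate 2 (horizontal axis), for each gene (vertical axis) of the pathway, of the atrial and of the ventricular markers. Nppa (−2.74) lies on the side of Sln (−5.96), Myl7 (−4.97) and Myl4 (−4.87) but has a smaller gap, nearer to Dkk3 (−2.25) and Nr2f2 (−2.01). The atrial markers reach up to Gja5 (0). Nppb (0.31) and Corin (0.31) lie near 0, and the ventricular markers run from Hey2 (−1.02) to Myh7 (0.35).

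Adult cardiomyocytes against neonatal fibroblasts differ in cell type and in age together. Nppb and Corin rose and the other 4 genes did not pass, so 2 of 6 were called in limma, against 21% of all genes (10.1% higher and 11% lower in adult cells). At unadjusted p under 0.05, 3 of 6 passed, against 37%. Corin was higher in adult cardiomyocytes, with a difference of 6.57 ± 0.74 (SE) and an adjusted p of 0.00899. Nppb was 20.5-fold higher, with a difference of 4.36 ± 0.96 and an adjusted p of 0.0350. Npr3 differed by −1.79 ± 0.57 (3.46-fold lower, adjusted p = 0.0850); with the replicate number as a block its adjusted p was 0.0127. Nppa differed by 1.26 (95% interval −1.38 to 3.89, adjusted p = 0.422), Npr1 by 0.48 (−0.05 to 1.00) and Npr2 by 0.26 (−0.77 to 1.29). The arrays did not overlap for 4 of 6 genes, against 68% of all genes: Nppb, Corin and Npr1 were higher (37.8% of genes) and Npr3 lower (30.2%). Over the 6 genes the median difference was 0.87 beside 0.09. Both calls rested on few arrays. Corin lost its call without adult replicate 1 (adjusted p = 0.0799) or adult replicate 2 (0.0593). Nppb lost its call without adult replicate 1 (0.175), adult replicate 2 (0.128), or either neonatal cardiomyocyte array (0.0541 for each), with differences between 4.20 and 4.51. Without fibroblast replicate 1 the Nppb difference was 2.85, and without fibroblast replicate 2 it was 5.86, both called. With the titles' grouping both calls ended (adjusted p of 0.517 for Corin and 0.764 for Nppb). This comparison shares its fibroblast arrays with the first and its adult arrays with the second.

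The genes around the pathway were grouped in lists by role. Of 11 measured partners in peptide processing, 0 were called between neonatal cell types or between ages in limma. At unadjusted p under 0.05, 3 passed in each, against 16.3% and 22.8% of all genes. Furin, a convertase that cuts precursors in the secretory pathway and can process the BNP precursor, stayed between 7.97 and 8.77 on all arrays. Pcsk6, the convertase that activates corin, lay at 6.02 and 6.50 in neonatal cardiomyocytes, 9.05 and 8.94 in fibroblasts and 6.88 and 8.41 in adult cardiomyocytes. It was highest on the fibroblast arrays, where Corin was lowest. Between ages the genes went the same way: Pcsk6 (1.39, adjusted p = 0.207 in limma) and Corin (1.25) had the higher mean in adult cardiomyocytes, neither called. Nppc, which encodes C-type natriuretic peptide, lay between 3.69 and 4.31, near the lower quartile. Mme, neprilysin, which degrades natriuretic peptides, had the highest difference between adult and neonatal cardiomyocytes (2.14, adjusted p = 0.148, and 0.0408 with the replicate block) and the peptidase gene Dpp4 the lowest (−1.65, adjusted p = 0.0851). Between neonatal cell types the ends of the list were Pam (2.28) and the granule protein gene Scg2 (−3.94), neither called. In adult cardiomyocytes against fibroblasts 2 of 11 fell, Scg2 by 3.77 and Dpp4 by 2.72, beside 11% of all genes lower and 21% called either way; Pam had the highest difference, 1.55 (adjusted p = 0.489, and 0.0117 with the replicate block).

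Of 19 genes of cGMP signalling, limma called 0 between neonatal cell types and 0 between ages. At unadjusted p under 0.05, 6 and 4 passed, against 16.3% and 22.8% of all genes. The ends of the list were the phosphodiesterase genes Pde1c (3.12) and Pde1a (−2.68) between neonatal cell types. Between ages they were Rgs4 (2.60), which restrains G protein signalling, and Vasp (−1.86, adjusted p = 0.0537, and 0.0330 with the replicate block), a substrate of cGMP-dependent kinase. Against fibroblasts, Pde1c rose by 4.61 in adult cardiomyocytes, and 4 genes fell: the soluble guanylyl cyclase subunits Gucy1a1 (−3.66) and Gucy1b1 (−3.13), which respond to nitric oxide, Vasp (−2.12) and the cGMP-dependent kinase gene Prkg1 (−1.43). The 5 calls among 19 stand beside 21% of all genes. The median difference was −0.45, 0.16 and −0.66 in the 3 comparisons, beside −0.02, 0.09 and 0.09 over all genes.

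Among 23 transcription factors linked to Nppa and Nppb, 0 were called in limma between neonatal cell types. At unadjusted p under 0.05, 8 passed, against 16.3% of all genes, with Hopx highest (4.91) and Tead1 lowest (−0.64) in the list. Between ages Tbx20, a T-box factor of the heart, fell by 1.88 (adjusted p = 0.0363), from 11.87 and 12.31 to 10.29 and 10.13; this 1 call among 23 stands beside 2.3% of all genes, and it was lost without any 1 of the 6 arrays. Hey1 (1.09) and Hey2 (−2.39) were the ends of that list. Gata4, a zinc finger factor that binds the GATA motif, measured 9.82 and 7.73 in neonatal cardiomyocytes, 8.65 and 6.95 in fibroblasts, and 9.21 and 7.23 in adult cardiomyocytes, so its groups overlapped and replicate 1 was higher in each. Against fibroblasts, 5 of 23 rose in adult cardiomyocytes, namely Hopx (5.05), the homeobox factor Nkx2-5 (3.09), Nfatc2 (1.83), Tbx5 (1.67) and Mef2c (1.26), and Tbx20 (−1.51) and Yy1 (−1.40) fell, beside 10.1% of all genes higher and 11% lower.

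Of 6 other load-responsive genes, Xirp1 rose between neonatal cell types (4.52, beside 0.819% of all genes called), with Myh7 (6.67) and Ccn2 (−0.78) at the ends. Between ages limma called 0, with 2 at unadjusted p under 0.05, against 22.8% of all genes. Acta1 (1.66) and Myh7 (−3.12) were the ends there. Xirp1 kept its call without fibroblast replicate 2 and lost it without any other array and with the replicate block (adjusted p = 0.0645). Against fibroblasts Acta1 (5.20) and Xirp1 (4.52) rose, beside 10.1% of all genes, and Ccn2 (−2.48) was lowest, with an adjusted p of 0.0503, and 0.0211 with the replicate block. Myh7, the slow myosin heavy chain, measured 14.41 and 9.70 on the neonatal cardiomyocyte arrays, whose Nppb values were 12.94 and 13.25. The 16 calls of these lists against fibroblasts became 0 without adult replicate 1, 1 without adult replicate 2, 7 without fibroblast replicate 1 and 9 without fibroblast replicate 2. Immediate early genes, which cell isolation can induce, were higher in adult cells. In limma 3 of 10 rose against neonatal cardiomyocytes (1.08% of all genes) and 10 of 10 against fibroblasts (10.1%). All 10 had non-overlapping, higher values in adult than in neonatal cardiomyocytes, against 33.9% of all genes. Their medians were 12.39 and 12.65 against 10.11 and 9.58. Their part in the differences above was not tested.

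**Figure D4:**
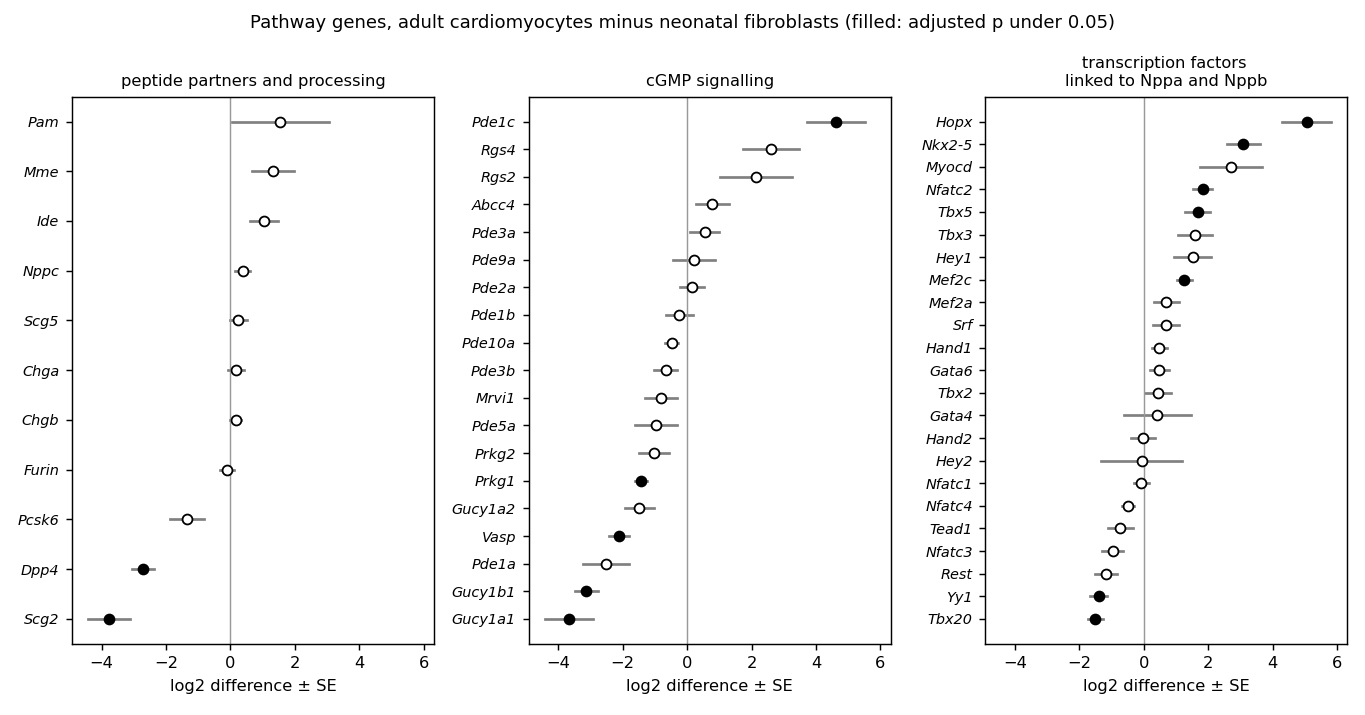
Log2 differences between adult cardiomyocytes and neonatal fibroblasts (points, with SE as lines) for the genes of the 3 pathway lists; filled points have an adjusted p under 0.05. Pde1c (4.61) and Hopx (5.05) lie to the right, and Gucy1a1 (−3.66) and Scg2 (−3.77) to the left.

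Across the 6 arrays the members fell into different patterns, given here as a description over arrays that share groups. The genes compared with the members were the 6834 with an SD of at least 0.5. Npr1 (SD 0.26) and Npr2 (0.46) lay below that floor themselves. Npr1 also lay near the lower quartile on every array, so its correlations rest on small differences between dim values. Correlations between members used no floor. The genes most like Nppa were Sln (Pearson r = 0.998), Tet2 (0.9859) and Myl4 (0.9813). Those most like Nppb were Ldb3 (0.9978), Lmo7 (0.9972) and cardiac actin, Actc1 (0.9961). Corin was most like 0610040B10Rik (0.9997), the respiratory chain gene Uqcrc2 (0.9994) and Pank1 (0.9987). Npr1 was most like Lama3, Atp8a1 and Oplah (0.975 to 0.9685), Npr2 like Gaa, Sirt2 and Pitpnm2 (0.9956 to 0.9708), and Npr3 like Tax1bp3, Zik1 and Taf1d (0.9991 to 0.9935). Between members, Nppb and Corin had the highest correlation (0.91), Corin and Npr1 had 0.81, Nppa and Nppb had 0.73, and Npr3 had −0.82 with both Npr1 and Npr2.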

How the data were processed

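Per the submitters' processing notes, the deposited values are RMA values, which the authors gave on a log2 scale per probe set after background correction, quantile normalization and probe summary; no version is named there. Of 45101 probe sets (64 controls), GEO's platform annotation named 34945 to 1 gene, 932 to several and 9160 to none here. Per gene the probe set with the highest mean was kept, which gave 18193 genes, and 0 symbols needed an update. All 6 arrays entered a model of 3 group means in limma 3.58.1 (R 4.3.3; 3 residual and 2.18 prior degrees of freedom), tested two-sided with Benjamini-Hochberg adjustment over all genes at 0.05; the code was tested on simulated data. The number of arrays limits the precision; an exact permutation test of 2 against 2 arrays cannot go below p = 0.333. The genes and lists were chosen with earlier results of these data known. All 6 members are named, as are list genes that passed the threshold or had a list's highest or lowest difference, any atrial or ventricular marker, and the 3 genes most correlated with each member; Furin, Pcsk6, Nppc and Gata4 were added after their values were seen. Replicate numbers come from the titles; same-numbered arrays deviated together from their group means (correlations 0.183, 0.268 and 0.207 over genes), so a fit with the number as a block was also made. Ostn and Xirp2 had no probe set named to them alone. Epicardial marker medians were 7.48 and 8.01 in neonatal cardiomyocytes, 10.14 and 7.48 in fibroblasts, and 5.56 and 6.17 in adult cardiomyocytes.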

Additional observations from a re-analysis of the deposited data

How the results depend on the processing

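Of 15 alternatives, each moved 1 choice; Npr1 was too dim for the filter on genes at or above the median and has no value there. Npr3 kept a lower mean in adult cardiomyocytes than in either neonatal group in all of them, with differences from −2.15 to −1.26 and from −2.46 to −1.12. Over all genes, the calls left after dropping 1 array ran from 0 to 437 between neonatal cell types, 0 to 164 between ages and 0 to 3823 for adult cardiomyocytes against fibroblasts; members called ran from 0 to 1, stayed at 0, and ran from 0 to 2. Between neonatal cell types limma called 0 genes with the titles' grouping, without both neonatal replicate 1 arrays, with the probe set of largest SD and with only the 4 arrays compared (232, 1461, 2770 and 2532 at unadjusted p under 0.05), 59 with the mean of probe sets and 384 with the dim-gene filter. Corin was the 1 member called under that filter and under eBayes with trend and robust settings. Between ages limma called 114 genes with the titles' grouping, 0 without both neonatal replicate 1 arrays (3845 at unadjusted p under 0.05) and 164 with 4 arrays. Against fibroblasts it called 137 with the titles' grouping, where 0 members passed in limma (1 at unadjusted p under 0.05), and 717 without both replicate 1 arrays; with 4 arrays 1 member, Corin, passed.

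With the titles' grouping, directions turned. The neonatal difference was −0.78 for Nppa, −1.35 for Nppb, −1.56 for Corin, 0 after rounding for Npr1, 0.17 for Npr2, 0.99 for Scg2, −1.69 for Pde1c, 0.24 for Tead1, −1.50 for Hopx, −3.23 for Myh7, −0.91 for Xirp1 and 0.70 for Ccn2. The age difference was 0.11 for Nppa, 2.68 for Nppb and 1.83 for Myh7, and Nppa differed by −0.67 from fibroblasts. With the mean of probe sets, Npr3 differed by 0.08 between neonatal cell types. Dropping 1 array gave neonatal differences from −0.77 to 0.11 for Npr2, −0.75 to 0.59 for Npr3 and −1.71 to 0.16 for Ccn2, and differences from fibroblasts of −0.11 to 2.62 for Nppa and −0.17 to 0.70 for Npr2. The causes were not tested.

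With the replicate number as a block, limma called 0 genes between neonatal cell types (3678 at unadjusted p under 0.05), and 1 member between ages, Npr3. Apart from the members, the block was read only for genes called or at a list's end in a comparison. These came from the partner, cGMP, transcription factor and load-responsive lists. Among the genes read, the block changed only calls of Npr3, Mme, Vasp, Pam, Ccn2 and Xirp1, whose values stand in the report. For the other named genes it was not read.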
